A study of Mus musculus with 22 samples.

Results

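Imprinted genes are read from only 1 of the parental copies of a chromosome, and many of them set how much an embryo grows. The 10 described here are growth-related imprinted genes outside distal chromosome 7: Dlk1, Mest, Nnat, Peg3, Zim1, Plagl1, Grb10, Igf2r, Peg10 and Sgce. They were chosen by gene symbol from the rows of the deposited RNA tables, which hold 16266 symbols in all 4 libraries. All 10 had rows, 21 transcripts in total, and all 10 were among the 11147 genes that passed the filter on low values (at least 0.5 RPKM in at least 2 libraries).

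RNA sequencing compared primary mouse embryonic fibroblasts, cells grown out of the bodies of C57BL/6 embryos at embryonic day 13.5 and used at passage 3 to 4. Wild-type cells (Lsh+/+, WT) and knockout cells (Lsh-/-, KO) gave 2 libraries each, which carry the replicate numbers 1 and 2 (WT1 and WT2, KO1 and KO2). Lsh, made by the gene Hells, is a SNF2-family chromatin remodeller needed for normal DNA methylation. The labels name the samples biological replicates and give neither the number of embryos per culture nor the deleted part of Hells. The levels are RPKM, reads scaled to transcript length and to the mapped reads of the library, so they can be compared between genes. They add up both parental copies, and no value here tells the copies apart.

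As background, the parental marks at such genes are stretches of DNA methylation laid down in egg or sperm and kept through cell division. Genes read from the paternal copy (Dlk1, Mest, Nnat, Peg3, Plagl1, Peg10 and Sgce) mostly favour growth, and genes read from the maternal copy (Grb10, Igf2r and Zim1) include inhibitors of growth. In fibroblasts and other mesenchymal cells many of them belong to a network whose members are expressed together in the embryo and decline after birth. Plagl1, a zinc finger transcription factor, is a known regulator within that network.

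Depth was 122500000 to 176500000 mapped reads per library, as estimated from the step size of single-exon olfactory receptor rows. Hells was at 0.865 RPKM in WT1, 1.06 in WT2, 0.430 in KO1 and 0.550 in KO2, lower in the knockout within both numbers but not called (-0.56, SE 0.16, limma adjusted p 0.200 with the number as a term). All 12 fibroblast markers listed for this work were tested, and their summed level lay between 2910 and 3138 RPKM in every library. That sum covers opposite differences by number, with 7 markers higher and 3 lower in number 2, beside 35.8% and 11.9% of all genes tested. Vim, the most abundant of them, was at 1307 RPKM in WT1 and 879.2 in WT2, and Col1a2 at 308.5 and 623.4. By genotype 0 of the 12 were called with the number as a term, where 0.673% of all genes tested were. Within both numbers KO was above WT for 8 and below it for 3, beside 22.5% and 31.4% of all genes tested. Their median change was 0.37, beside -0.02 over all genes tested. The libraries split by replicate number, as limma called 5323 of 11147 genes (47.8%) between the numbers. Genotype differences are therefore given within each number, and in 2 limma fits, the first with genotype alone and the other adding the replicate number. The labels do not say what a number stands for.

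Dlk1 and Nnat fell in the knockout, each to about the same fraction of wild type in both pairs of libraries, and 0 of the 10 genes rose. These 2 calls come from the limma model that includes the number, in which 0.673% of all genes tested were called, 0.296% as lower and 0.377% as higher in KO. The model with genotype alone called 0 of 11147 genes (0%), of which 41 had an unadjusted p below 0.05, and its adjusted p was 1.00 for every one of the 10 genes. Mest and Plagl1 had lower values in both KO libraries than in their WT partners but missed the threshold. In bulk RNA, fewer cells that express a gene and less RNA per cell cannot be told apart.

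Dlk1 (chromosome 12, 110691033 to 110701547, plus strand, mm9) encodes a transmembrane protein with EGF repeats that holds back adipocyte differentiation. It was at 7.10 RPKM in WT1 against 3.29 in KO1, and at 132.3 RPKM in WT2 against 58.95 in KO2. The knockout level was thus 0.463 of wild type for number 1 and 0.446 for number 2. Both KO libraries were below their partner, but the genotypes overlapped, since KO2 was far above WT1. The log2 change of RPKM plus a pseudocount of 0.5 was -1.08 (SE 0.16, 2 libraries per genotype, limma adjusted p 0.0139 with the number as a term). The coding transcript NM_010052 held 99.5% to 99.9% of the gene's value in every library.

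Nnat (chromosome 2, 157385846 to 157388256, plus strand) encodes neuronatin, a small protein of the endoplasmic reticulum membrane. It was at 17.6 RPKM in WT1, 13.01 in WT2, 8.44 in KO1 and 6.40 in KO2. Nnat was the 1 gene of the 10 whose genotypes did not overlap, with both KO libraries below both WT libraries, as were 7.32% of all genes tested. In 0 of the 10 were both KO libraries above both WT libraries, a position held by 6.1% of genes. The knockout level was 0.480 of wild type for number 1 and 0.492 for number 2. The log2 change was -0.99 (SE 0.16, limma adjusted p 0.0238 with the number as a term). Its 2 transcripts kept the same split in all libraries, 3.03% and 97.0% of the gene, so the rows give 1 measurement and not 2.

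Both calls ended when no filter on low values was used (adjusted p 0.429 for Dlk1 and 0.436 for Nnat) and when each gene was represented by its top transcript alone (0.105 and 0.136). In 7 of 9 settings with the number as a term both were called, and their change ran from -1.13 to -1.02 for Dlk1 and from -1.03 to -0.95 for Nnat.

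Nnat lies within an intron of Blcap, a gene expressed from both copies in most tissues. Blcap was at 37.5 RPKM in WT1, 23.9 in WT2, 38.05 in KO1 and 24.2 in KO2. Its log2 change of 0.02 (SE 0.16, limma adjusted p 0.993 with the number as a term) stands beside that of -0.99 for the gene inside it. The 250 bases before the Nnat start that RefSeq lists (build GRCm38.p6, chr2:157559828-157560077, plus strand) are shown because Nnat was called between genotypes, with CG dinucleotides, the sites of DNA methylation, in capitals.
Nnat upstream: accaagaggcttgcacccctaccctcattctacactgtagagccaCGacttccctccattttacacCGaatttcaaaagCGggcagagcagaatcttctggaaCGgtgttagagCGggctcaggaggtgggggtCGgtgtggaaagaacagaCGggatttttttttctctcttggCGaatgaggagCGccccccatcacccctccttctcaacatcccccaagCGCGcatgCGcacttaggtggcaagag
This stretch holds 12 CG, more than 66.5% of the 32851 windows of the same length in the table, whose median is 6.

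**Figure D1:**
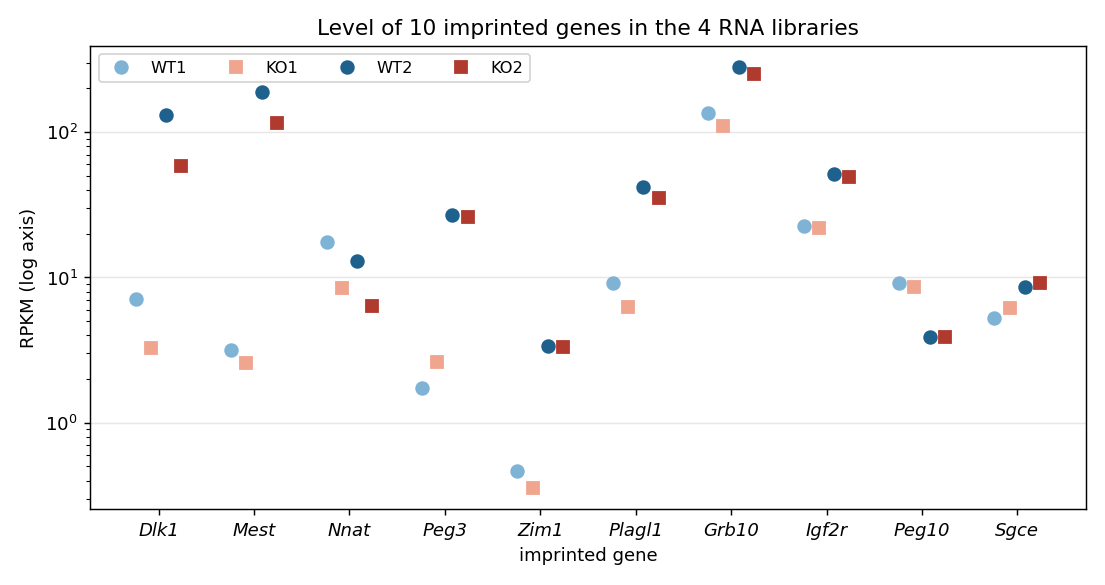
RPKM (log axis) of each gene in each library, 1 point per library, circles for WT and squares for KO, light for number 1 and dark for number 2. Dlk1, Mest, Peg3, Plagl1 and Zim1 stand well apart by number, whereas only Nnat has both KO points below both WT points.

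Across the 10 genes, 7 were lower in KO within both numbers, a position that 31.4% of all genes tested shared. Sgce was higher within both numbers, as were 22.5% of genes, and Peg3 and Peg10 went opposite ways in the 2 numbers. The median log2 change of the 10 was -0.16, beside -0.02 over all genes tested. The members were chosen with earlier results known, so this share is a description.

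Mest (chromosome 6, 30688063 to 30698458, plus strand), a paternally expressed gene for a protein of the alpha/beta hydrolase fold, was at 3.16 RPKM in WT1 against 2.58 in KO1. In number 2 it was at 187.5 RPKM in WT2 against 116.1 in KO2. Its genotype difference was -0.25 for number 1 and -0.69 for number 2 (mean -0.47, SE 0.18, limma adjusted p 0.397 with the number as a term). The 2 differences lay apart by nearly as much as their mean lay from 0, and the gene missed the threshold.

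Plagl1 (chromosome 10, 12810594 to 12851502, plus strand) was at 9.18 RPKM in WT1 against 6.27 in KO1, and at 42.2 in WT2 against 35.4 in KO2. The log2 difference was -0.52 and -0.25 within the numbers (mean -0.38, SE 0.17, limma adjusted p 0.521). The unadjusted p of Mest and Plagl1 was below 0.05, as it was for 4 of the 10 genes in that fit (the others being Dlk1 and Nnat) and for 9.1% of all genes tested.

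The genes that restrain insulin and IGF signals were not called by genotype. Grb10 (chromosome 11), an adaptor that binds and inhibits the insulin and IGF1 receptors, was at 136.2 RPKM in WT1 against 110.6 in KO1, and at 280.9 in WT2 against 253.3 in KO2. Its log2 change was -0.22 (SE 0.15, limma adjusted p 0.786 with the number as a term). Igf2r (chromosome 17, 12875272 to 12962573, minus strand), the receptor that clears IGF2 and sorts lysosomal enzymes, was at 22.7 RPKM in WT1 against 21.9 in KO1, and at 51.7 in WT2 against 48.8 in KO2 (change -0.06, SE 0.16, adjusted p 0.969).

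Peg10 and Sgce start 101 bases apart and run in opposite directions on chromosome 6. Peg10 (4697306 to 4710517, plus strand), a gene derived from a retrotransposon, was at 9.19 RPKM in WT1 against 8.55 in KO1, and at 3.91 in WT2 against 3.92 in KO2. Its 2 transcript rows hold the same value, so the sum is double the level of either row. Sgce (4624350 to 4697205, minus strand), which encodes epsilon-sarcoglycan, was at 5.30 RPKM in WT1 against 6.16 in KO1, and at 8.55 in WT2 against 9.15 in KO2. Neither was called by genotype (limma adjusted p 0.978 and 0.904 with the number as a term).

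Peg3 and Zim1, zinc finger genes that lie 9527 bases apart on proximal chromosome 7, were not called either. Peg3 (6658671 to 6683131, minus strand) was at 1.75 RPKM in WT1 against 2.63 in KO1, higher in the knockout, and at 26.8 in WT2 against 26.2 in KO2, nearly level. Zim1 (6628154 to 6649144, minus strand) was at 0.463 RPKM in WT1 against 0.355 in KO1, and at 3.36 in WT2 against 3.33 in KO2. The limma adjusted p was 0.837 for Peg3 and 0.950 for Zim1 with the number as a term.

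**Figure D2:**
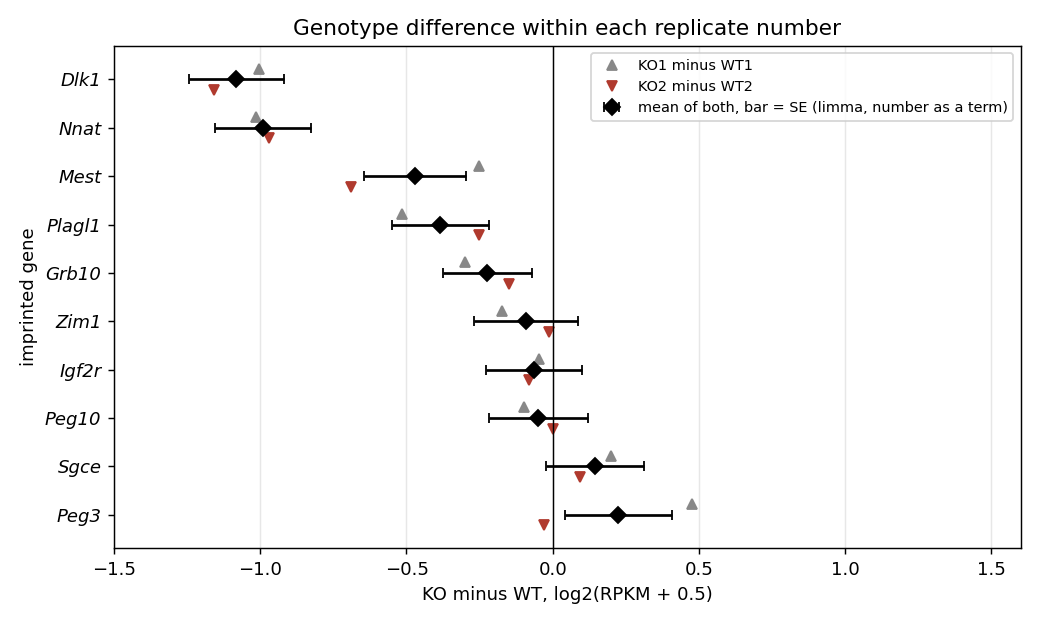
KO minus WT on the log2(RPKM + 0.5) scale for each gene, as triangles for each replicate number (1 library minus 1 library) and as a diamond for their mean, with a bar of 1 SE from limma with the number as a term. Dlk1 and Nnat lie near -1 in both numbers, and Peg3 has its 2 triangles on either side of 0.

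In 9 of the 10 genes the difference between the numbers was larger than that between the genotypes, Nnat being the exception. The same held for 81.4% of all genes tested. In the same limma fit 8 genes were higher and 1 lower in number 2, where 35.8% of all genes tested were higher and 11.9% lower. In 8 of the 10 both libraries of number 2 lay above both of number 1, as in 53.3% of all genes. In size, 5 of the 10 had a log2 difference above 2, beside 2.36% of all genes tested. With median-ratio scaling 3 of the 10 did, beside 1.65% of all genes, as Plagl1 (1.95) and Zim1 (1.86) came below 2. With quantile normalization or a pseudocount of 1 it was 4, without Zim1.

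Mest showed the widest gap, with 59.3 times the RPKM in WT2 that it had in WT1 and 45.1 times in KO2 against KO1 (log2 difference 5.46, SE 0.18, limma adjusted p 2.74e-08). In absolute difference it stood at percentile 99.97 of all genes tested. Dlk1 was 18.6 times higher in WT2 than in WT1 and 17.9 times higher in KO2 than in KO1 (4.05, SE 0.16, adjusted p 7.80e-08). Peg3 was 15.3 and 9.99 times higher (3.35, SE 0.18, adjusted p 5.14e-07). These are paternally expressed genes, and the same direction held in both genotypes.

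Zim1 was 7.27 times higher in WT2 than in WT1 and 9.40 times higher in KO2 than in KO1, and Plagl1 4.60 and 5.64 times. Grb10 (2.06 and 2.29 times) and Igf2r (2.28 and 2.23 times) were higher by less. For these 4 genes the limma log2 difference was 2.08, 2.27, 1.12 and 1.15, in the order named, and each adjusted p was 0.000255 or lower. Zim1, Grb10 and Igf2r are maternally expressed genes, so genes of both parental kinds were higher in number 2.

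Peg10 went the other way, at 2.35 times the level in WT1 that it had in WT2 and 2.18 times in KO1 against KO2 (log2 difference -1.08, SE 0.17, limma adjusted p 0.000453). Its neighbour Sgce was higher in number 2 (0.59, SE 0.17, adjusted p 0.0145), a call that did not hold with median-ratio scaling. Nnat was not called between the numbers (-0.40, SE 0.16, adjusted p 0.0678).

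All genes tested were shifted upward in number 2 by a median of 0.25. With median-ratio scaling the calls between the numbers became 2400 higher and 2681 lower, from 3992 and 1331 without it. Under that scaling Sgce was no longer called (0.27, adjusted p 0.190) and Nnat was called lower in number 2 (-0.72, adjusted p 0.00216). Quantile normalization moved both calls the same way. The other 8 genes kept their direction and their call in all 10 settings of that comparison.

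**Figure D3:**
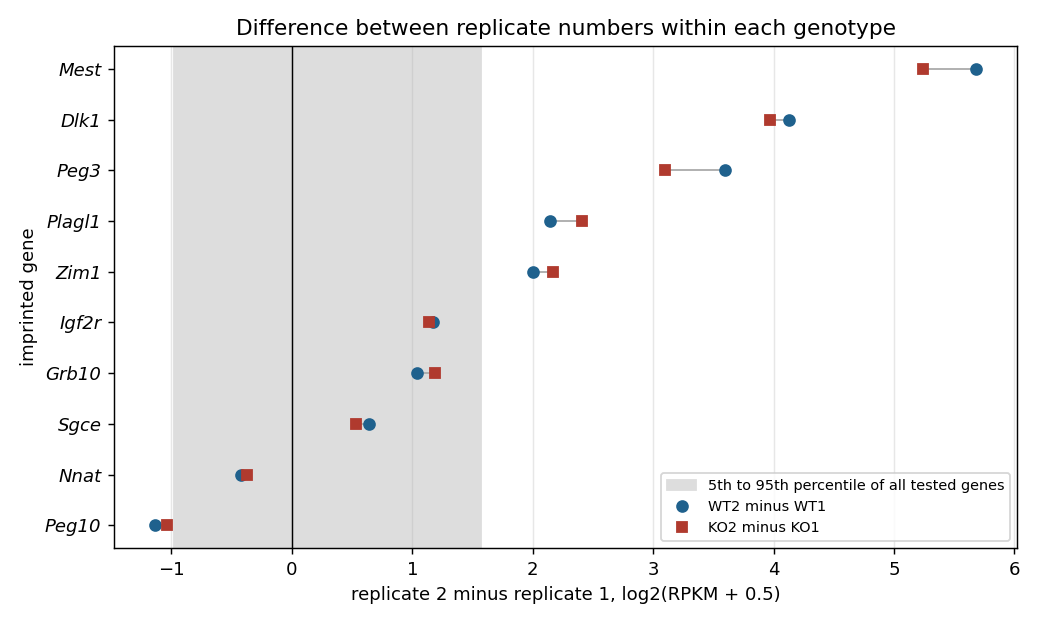
Replicate 2 minus replicate 1 on the log2(RPKM + 0.5) scale for each gene, circles for WT and squares for KO, each 1 library minus 1 library. The grey band spans percentiles 5 to 95 of all genes tested, and Mest, Dlk1, Peg3, Plagl1 and Zim1 lie to its right in both genotypes.

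The order of levels among the 10 genes depended on the number. Grb10 was highest and Zim1 lowest in all 4 libraries, and Plagl1 held rank 5 in each. Mest had rank 8 in WT1 and 9 in KO1 but rank 2 in WT2 and KO2. Peg10, counted at its doubled sum, had rank 4 in WT1 and 3 in KO1 and rank 9 in number 2, and Dlk1 had ranks 6 and 7 in number 1 and rank 3 in number 2. A range within a number spans only 1 WT and 1 KO value. In number 1 the ranges of Nnat (8.44 to 17.6 RPKM), Peg10 (8.55 to 9.19) and Plagl1 (6.27 to 9.18) overlapped. That of Dlk1 (3.29 to 7.10) overlapped those of Plagl1 and Sgce (5.30 to 6.16), and that of Mest (2.58 to 3.16) overlapped that of Peg3 (1.75 to 2.63). In number 2 those of Mest (116.1 to 187.5 RPKM) and Dlk1 (58.95 to 132.3) overlapped, and so did those of Nnat (6.40 to 13.01) and Sgce (8.55 to 9.15).

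The start of Mest nearest to that of its row is given with that of Plagl1, because both were among the genes far higher in number 2 (RefSeq, GRCm38.p6, chr6:30737803-30738052, plus strand, and chr10:13090582-13090831, plus strand, CG in capitals).
Mest upstream: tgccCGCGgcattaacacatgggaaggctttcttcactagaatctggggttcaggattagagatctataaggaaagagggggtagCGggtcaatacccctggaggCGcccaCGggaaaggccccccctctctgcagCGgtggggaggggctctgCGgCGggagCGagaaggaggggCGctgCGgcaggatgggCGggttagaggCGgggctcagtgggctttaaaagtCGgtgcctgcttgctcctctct
Plagl1 upstream: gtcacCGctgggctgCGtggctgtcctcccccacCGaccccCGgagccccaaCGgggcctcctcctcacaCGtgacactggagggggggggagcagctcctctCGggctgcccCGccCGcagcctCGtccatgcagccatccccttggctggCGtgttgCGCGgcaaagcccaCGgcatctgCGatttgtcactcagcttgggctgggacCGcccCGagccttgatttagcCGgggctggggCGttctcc
The Mest stretch holds 14 CG and the Plagl1 stretch 19, more than 70.6% and 80.3% of all windows. The letters TGCCGC, the core of the motif bound by the imprint-protecting factor ZFP57 when methylated, were searched on both strands. They occur 2 times in the Mest stretch and 1 time in that of Plagl1, beside 8.68% of all 32851 windows with at least 1 match. No match was found in the Nnat stretch or in either Grb10 stretch printed here. Over the whole table, 4 of the 11 windows of these genes held a match, from 3 genes, Mest, Plagl1 and Zim1. Of these windows 2 are those of Mest that start at 30737800 and 30737803, which overlap and hold the same matches. The Zim1 window lies further from the start in the files than any window printed here. Of the 10 genes 8 had a window in the table. That of Dlk1 lies before the start of a noncoding transcript that held at most 0.506% of the gene's value, 632 bases from the start of NM_010052, and is not shown.

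Grb10 has 2 transcripts in the files with different starts, 9449 bases apart (chromosome 11, 11830502 to 11937424, minus strand, mm9). The inner one, NM_001177629, was at 94.4 RPKM in WT1 against 70.6 in KO1, and at 211.9 in WT2 against 179.1 in KO2. The outer one, NM_010345, was at 41.9 RPKM in WT1 against 40.03 in KO1, and at 69.02 in WT2 against 74.2 in KO2. The inner transcript was lower in KO within both numbers, whereas the outer one was lower in KO1 and higher in KO2 than in its partner.

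The inner start held 69.3% of the gene in WT1 against 63.8% in KO1, and 75.4% in WT2 against 70.7% in KO2. Its share was lower in the knockout within both numbers and higher in number 2 within both genotypes. With 1 value per library and a split of overlapping reads made upstream by the authors, this difference was not tested. The bases before each start are shown because they differ in CG content (RefSeq, GRCm38.p6, chr11:12027972-12028221 and chr11:12037421-12037670, minus strand, CG in capitals).
Grb10 inner upstream: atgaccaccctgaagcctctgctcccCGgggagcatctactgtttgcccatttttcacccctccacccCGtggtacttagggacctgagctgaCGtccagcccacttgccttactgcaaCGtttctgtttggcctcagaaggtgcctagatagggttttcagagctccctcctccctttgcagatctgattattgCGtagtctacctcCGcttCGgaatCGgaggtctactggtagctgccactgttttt
Grb10 outer upstream: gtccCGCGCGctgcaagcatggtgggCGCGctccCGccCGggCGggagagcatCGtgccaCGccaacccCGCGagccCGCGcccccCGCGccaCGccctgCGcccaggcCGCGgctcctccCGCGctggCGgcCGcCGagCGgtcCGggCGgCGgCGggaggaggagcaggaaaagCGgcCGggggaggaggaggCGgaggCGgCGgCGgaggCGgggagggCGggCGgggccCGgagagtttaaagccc
The outer stretch holds 40 CG and 81.2% G or C, more CG than 98.7% of windows, and the inner one holds 8 CG and 54.0% G or C. The distance between these windows, 9449 bases, equals that between the starts in the files.

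**Figure D4:**
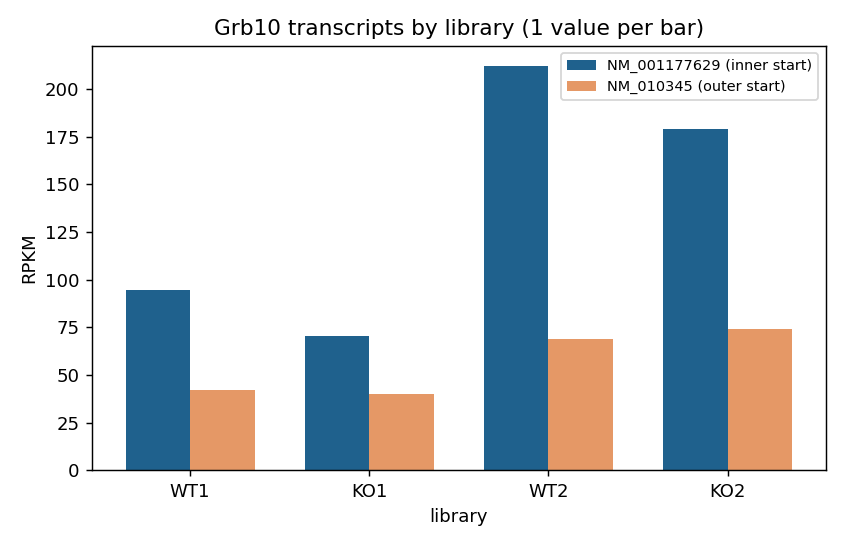
RPKM of the 2 Grb10 transcripts in each library, bars from 0 with 1 value each and no error bar. The inner start is the taller bar in all 4 libraries, and the outer start changes less between genotypes.

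The neighbours of the 10 genes were listed by domain from general knowledge. Of the 25 that were tested 0 were called by genotype, where 0.673% of all genes tested were. Within both numbers KO was higher at 6 of them and lower at 9, beside 22.5% and 31.4% of all genes tested. Their median change was -0.07. Between the numbers 13 were higher and 3 lower in number 2, beside 35.8% and 11.9% of all genes tested.

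In the Dlk1 domain the maternally expressed noncoding genes Rian and Meg3 were called neither by number nor by genotype. Rian was at 67.96 RPKM in WT1 against 75.3 in KO1, and at 71.4 in WT2 against 78.5 in KO2, a difference between numbers of 0.07 (limma adjusted p 0.760). Meg3 was at 20.8 RPKM in WT1 against 26.4 in KO1, and at 48.1 in WT2 against 29.5 in KO2 (adjusted p 0.0607 for number and 0.928 for genotype). Begain, a neighbour of Dlk1, was at 1.23 RPKM in WT1 against 1.45 in KO1, and at 9.42 in WT2 against 5.78 in KO2, higher in number 2 (2.10, SE 0.22, adjusted p 6.04e-05). Wdr25 was higher by 0.61 (adjusted p 0.0129), and Wars, Mirg and Dio3 were not called by number.

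In the Peg3 domain the antisense transcript Apeg3 was at 0.842 RPKM in WT1 against 0.320 in KO1, and at 9.81 in WT2 against 10.7 in KO2. It was higher in number 2 by 3.36 (SE 0.22, limma adjusted p 3.24e-06), beside 3.35 for Peg3. Airn, the noncoding RNA antisense to Igf2r that is read from the paternal copy, was at 0.891 RPKM in WT1 against 0.766 in KO1, and at 2.79 in WT2 against 2.03 in KO2 (1.12 between numbers, adjusted p 0.000579). Whether the reads were counted by strand is not given in the sources used here, so a gene and its antisense partner cannot be told apart.

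Next to Mest, the genes Copg2, Klhdc10 and Tsga14 were also higher in number 2, by 0.73, 1.06 and 0.99 (limma adjusted p 0.00552, 0.000465 and 0.00117), far less than the 5.46 of Mest. Klf14 was higher too (1.37, adjusted p 0.000299). Of the 5 tested neighbours of Peg10 and Sgce, Tfpi2 and Pon2 were lower in number 2 (-1.95 and -0.90, adjusted p 1.08e-05 and 0.00138). Casd1 and Asb4 were higher (0.67 and 0.59, adjusted p 0.011 and 0.0157), and Pon3 was not called. Next to Grb10, Ddc was at 0.177 RPKM in WT1 against 0.145 in KO1, and at 0.812 in WT2 against 0.751 in KO2, higher in number 2 by 0.95 (adjusted p 0.000533). Fignl1 was higher as well (1.33, adjusted p 0.000431), and Cobl was not called. Next to Plagl1, Phactr2 was higher (1.20, adjusted p 0.00036), whereas Sf3b5 and Ltv1 were not called.

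**Figure D5:**
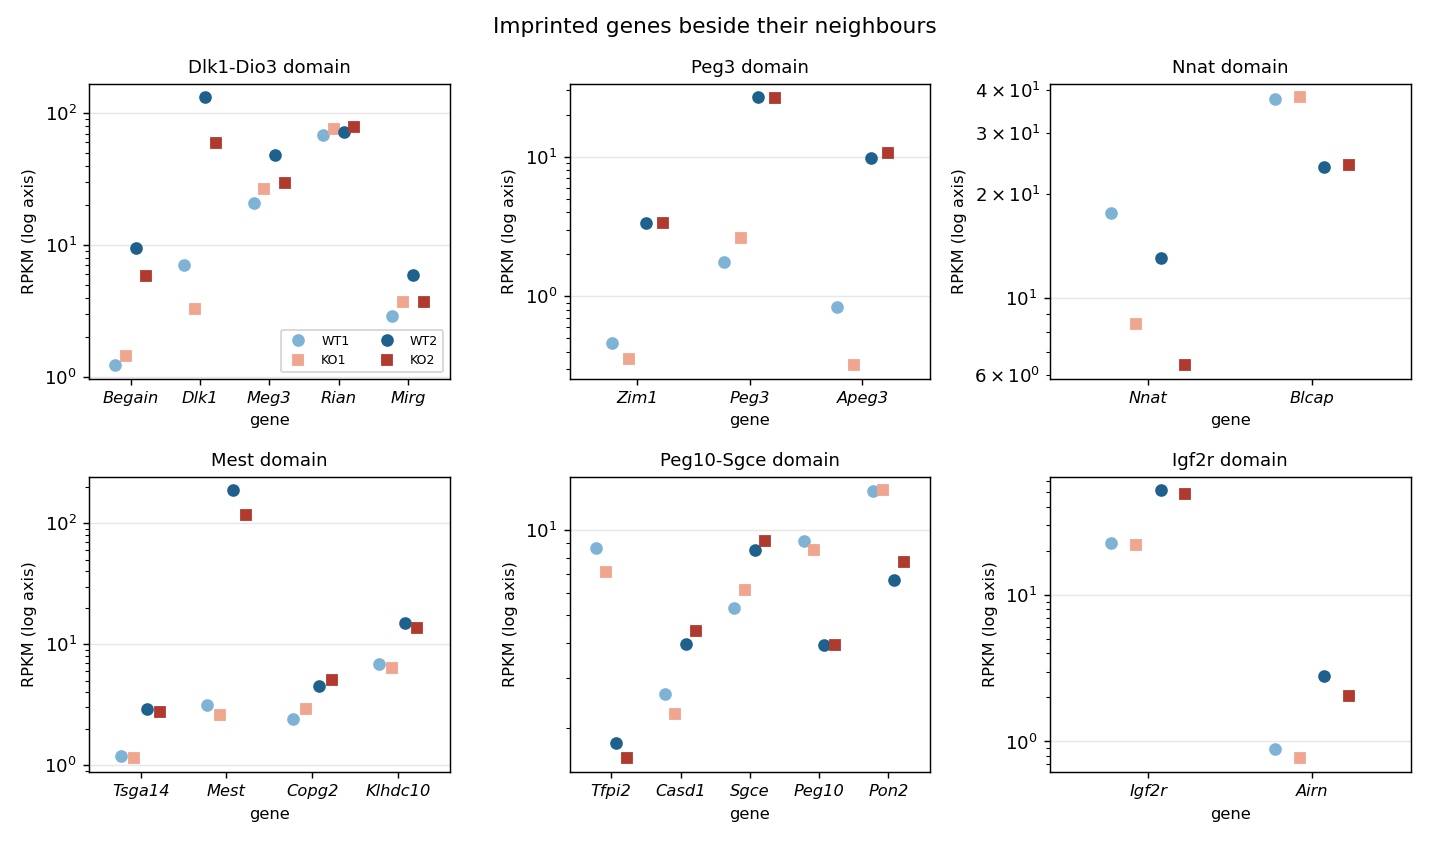
RPKM (log axis) of 6 imprinted domains, 1 point per library, with symbols as in the plot of levels and genes set side by side without scale. Dlk1 and Mest separate by number far more than Rian, Meg3, Copg2 or Klhdc10 beside them. Begain, beside Dlk1, is also higher in number 2 (2.10), and Blcap is level between genotypes where Nnat is not.

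The wider network around Plagl1 was compared through a list of 16 genes, of which 7 are members. All 9 others were tested, and 0 were called by genotype, where 0.673% of all genes tested were. Between the numbers 5 were higher and 4 not called. Over all genes tested 35.8% were higher in number 2. Cdkn1c, an imprinted inhibitor of the cell cycle, was at 12.2 RPKM in WT1 against 20.7 in KO1, and at 257.6 in WT2 against 232.2 in KO2 (log2 difference 3.90, limma adjusted p 4.10e-06). Dcn, the gene of the matrix proteoglycan decorin, was at 3.88 RPKM in WT1 against 13.9 in KO1, and at 121.2 in WT2 against 128.6 in KO2 (3.98, adjusted p 0.0125). Gnas and Slc38a4 were higher by 0.61 and 1.15 (adjusted p 0.00701 and 0.00629). Ndn (0.37, adjusted p 0.0918) and Gatm (0.47, adjusted p 0.0683) were not called. H19, a noncoding RNA of the Igf2 domain, was at 661.2 RPKM in WT1 against 105.2 in KO1, and at 3604 in WT2 against 2756 in KO2, and was called neither by genotype (adjusted p 0.849) nor by number (0.147).

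Other imprinted genes were taken as a list. Of 34 tested outside the 10 genes and their neighbours, 10 were higher in number 2, 2 lower and 22 not called. Over all genes tested 35.8% were higher and 11.9% lower. The median difference of the 34 was 0.34, beside 0.25 over all genes tested and 1.62 for the 10. By genotype 0 of the 34 were called, beside 0.673% of all genes tested, with a median change of 0.06.

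Among 25 tested genes of insulin and IGF signalling, which Grb10 and Igf2r restrain, 0 were called by genotype. Over all genes tested 0.673% were called. Igf2, the growth factor that Igf2r clears, was at 548.0 RPKM in WT1 against 117.1 in KO1, and at 2239 in WT2 against 1443 in KO2. Its genotype difference of -1.43 was larger than that of Dlk1 or Nnat but was not called (limma adjusted p 0.679 with the number as a term), and KO was further below WT in number 1. In number 2, 15 genes were higher, 1 lower and 9 not called, beside 35.8% higher and 11.9% lower over all genes tested. Igf2 was among the 15 higher genes (2.82, limma adjusted p 0.0486). The higher ones include the binding proteins Igfbp3 and Igfbp4, at 19.5 and 25.5 RPKM in WT1 and at 311.2 and 379.2 RPKM in WT2 (3.70 and 3.94, limma adjusted p 2.37e-07 and 8.13e-08). Nedd4, a ubiquitin ligase that binds Grb10, was at 163.9 RPKM in WT1 against 168.2 in KO1, and at 233.2 in WT2 against 242.0 in KO2.

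Of 11 tested genes of the Dlk and Notch pathway 0 were called by genotype, where 0.673% of all genes tested were. Dlk2, the closest relative of Dlk1, was at 0.746 RPKM in WT1 against 0.357 in KO1, and at 0.968 in WT2 against 0.614 in KO2, lower within both numbers but not called (-0.47, limma adjusted p 0.332). Jag1, a Notch ligand, was at 18.4 RPKM in WT1 against 35.9 in KO1, and at 8.75 in WT2 against 13.4 in KO2, a genotype difference that was not called (0.77, adjusted p 0.0848).

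The listed partners of Sgce gave 0 calls by genotype among 7 tested genes of the dystrophin and sarcoglycan complex. Those of Igf2r gave 0 among 9 of mannose 6-phosphate sorting, and over all genes tested 0.673% were called. Of the 7 genes of the complex 2 were higher in number 2, 0 lower and 5 not called, beside 35.8% higher and 11.9% lower over all genes tested. Sgcb, the beta-sarcoglycan, was among the higher ones (1.13, limma adjusted p 0.000573). M6pr, the smaller mannose 6-phosphate receptor, was at 42.2 RPKM in WT1 against 35.9 in KO1, and at 30.6 in WT2 against 30.4 in KO2, and was not called between the numbers (adjusted p 0.111).

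Of 9 tested genes listed as keeping imprints, Hells itself among them, 0 were called by genotype, where 0.673% of all genes tested were. Within both numbers KO was lower at 4 of them and higher at 1, beside 31.4% and 22.5% of all genes tested. Zfp57 was at 10.8 RPKM in WT1 against 10.98 in KO1, and at 14.7 in WT2 against 13.5 in KO2. Its cofactor Trim28 was at 21.6 RPKM in WT1 against 17.9 in KO1, and at 37.95 in WT2 against 30.6 in KO2. Trim28 was higher in number 2 (0.78, limma adjusted p 0.00281), and so was the methyltransferase Dnmt3a (1.47, adjusted p 8.04e-05).

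Some markers of other cells moved with genotype beside Dlk1 and Nnat. Of 11 tested macrophage and blood markers, 10 were lower in KO within both numbers, beside 31.4% of all genes tested. Called lower were 4 (C1qc, Cd14, Laptm5 and Fcer1g), beside 0.296% of all genes tested. The summed level of the 14 present was 60.8 and 176.9 RPKM in WT1 and WT2 and 8.40 and 86.5 RPKM in KO1 and KO2. Epithelial markers summed to 16.6 and 18.2 RPKM in WT against 5.98 and 5.88 RPKM in KO, and Krt19 and Krt7 fell. Krt19 held most of that sum, at 13.4 RPKM in WT1, 9.78 in WT2, 3.56 in KO1 and 2.70 in KO2. Krt18 was not called and was higher in KO1 than in WT1, Cdh1 and Epcam reached at most 0.0426 and 0.150 RPKM, and 5 of the 10 genes were below 0.5 RPKM in every library. Col2a1 alone was called among 5 tested chondrocyte markers, and it fell. The median change of those 5 was -0.05, and within both numbers 2 were lower and 0 higher in KO. Tubb3 alone was called among 5 tested neuronal markers, and it rose. The median change of those 5 was 0.11, and within both numbers 2 were higher and 1 lower in KO. Their part in the fall of Dlk1 and Nnat was not tested.

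Some of those sums also moved with the number. Macrophage markers were higher in number 2 in 10 of 11 tested genes and adipocyte markers in 5 of 6. Over all genes tested 35.8% were higher. The adipocyte markers summed to 5.64 to 5.85 RPKM in number 1 and to 27.5 to 31.1 RPKM in number 2. Lpl (13.7 and 19.5 RPKM in WT2 and KO2) and Cebpa (8.055 and 6.157 RPKM) held most of the sum in number 2. Pparg, the tested adipocyte marker that was not called, was at 1.446 RPKM in WT1 against 0.710 in KO1. It was at 0.906 in WT2 against 0.793 in KO2 (-0.19 between numbers, limma adjusted p 0.443). The mature adipocyte genes Adipoq, Plin1 and Lep were below 0.5 RPKM in every library, and Adipoq was listed at 0 in 3 of them. Skeletal muscle markers were below 0.5 RPKM in every library for 8 of 11 genes, and their sum was 153.3 and 86.7 RPKM in WT1 and KO1 but 56.1 and 61.5 RPKM in WT2 and KO2. Acta1, the skeletal actin gene, held most of that sum in number 1. It was lower in number 2 (-2.20, limma adjusted p 5.04e-06), at 129.4 RPKM in WT1 and 23.8 in WT2. Des, the gene of desmin, was at 23.7 RPKM in WT1 against 2.38 in KO1, and at 31.5 in WT2 against 37.96 in KO2, with no call. Of the muscle markers not tested, Myod1, Myog, Mylpf, Tnnt3 and Myh3 were higher in number 2 within both genotypes, and Chrna1 was lower. Myog was at 0 RPKM in WT1, 0.00552 in KO1, 0.383 in WT2 and 1.34 in KO2. Of 9 listed hepatocyte markers only 3 had a row in all 4 libraries, and these were below 0.5 RPKM in every library. Of the 12 fibroblast markers 7 were higher and 3 lower in number 2, beside 35.8% and 11.9% of all genes tested. The median difference of the 12 was 0.87, beside 0.25 over all genes tested. Pdgfra (0.987 and 23.2 RPKM in WT1 and WT2) was among the higher ones and S100a4 (277.4 and 35.6 RPKM) among the lower. The part of these markers in the differences between numbers was not tested.

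For each of the 10 genes the 3 genes with the most similar pattern were found by the Euclidean distance between log2(RPKM + 0.5) profiles over the 4 libraries, each centred on its mean. Nearest to Dlk1 was Igfbp4 (distance 0.457), then Meox1 and Fxyd6. Nearest to Mest was Gas1 (0.401), then Sfrp2 and Gdf10, and nearest to Peg3 was Apoe (0.115). Nearest to Nnat was Fam83g (0.163), then Tcfl5 and Arhgap22. For the others the nearest gene was H2afy2 for Plagl1 (0.142), Pik3ip1 for Zim1 (0.0847), Zswim6 for Peg10 (0.0381), Eml4 for Grb10 (0.0326), Cntrob for Igf2r (0.0326) and Sema4f for Sgce (0.0167). The distances describe 4 libraries that split by number, and no test was made of them.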

How the data were processed

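RNA of 4 of the 22 labelled samples was used, and the other 18 (input, RNA polymerase II and histone mark samples) are not analysed here. The deposited values are RPKM per RefSeq transcript, computed by the authors. The deposited readme names Cufflinks, and the submitters' processing notes name Partek and the build mm9. The aligner and the treatment of reads with several matches are not stated in the labels, headers or readme. Rows cover chromosomes 1 to 19, with 26886 rows for number 1 and 21136 for number 2. In number 2, 0 rows were at 0 in both libraries, whereas 7264 rows of WT1 and 6949 of KO1 were at 0. The 5750 rows of number 1 alone reached at most 1.19 RPKM and hold none of the 10 genes. They entered neither the gene sums nor the shares over all genes tested.

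Transcript rows were summed per symbol. A gene entered the tests if 2 or more libraries reached 0.5 RPKM, on the scale log2(RPKM + 0.5), which understates the change of low genes, and was tested with limma 3.58.1 in R 4.3.3 (eBayes with trend and robust variance, two-sided, Benjamini-Hochberg over all genes tested, threshold 0.05). The first design had genotype only, and the second added the replicate number, which leaves 1 residual degree of freedom, and most of the information on the error then comes from the other genes. P-values concern the spread between these libraries, which may be technical. The fits were tested on simulated data. Depth was estimated from olfactory receptor rows whose reads came out whole within 0.02 of a read in at least 95.7% of loci. An exact 0 in these files can be a failed estimate. Promoter windows are RefSeq's, GRCm38.p6, and were matched by the distance from the start to the gene's far end. That distance differed by 37 bases for Nnat, 18 for Mest, 46 for Plagl1 and 1 for each Grb10 start.

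The members and lists were chosen with earlier results of these data known. All 10 members are named. Of the lists, all neighbours with at least 0.5 RPKM in 2 libraries, the genes past the threshold by genotype and up to 4 of the most abundant genes of a list are named. Adipoq, Cdh1, Cdkn1c, Dcn, Dlk2, Dnmt3a, Epcam, Gatm, Hells, Lep, Myh3, Mylpf, Myod1, Ndn, Pdgfra, Plin1, S100a4, Sgcb, Slc38a4 and Tnnt3 fall outside that rule and were named after their values were seen.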

Additional observations from a re-analysis of the deposited data

How the results depend on the processing

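With genotype as the only term 0 genes were called in every setting, each library left out included (0 to 0). With the replicate number as a block 75 genes were called. With the block, the count was 40 with a pseudocount of 0.1, 59 with 1, 70 with a filter of 1 RPKM, 3 with the highest transcript per gene, 148 with median-ratio scaling, 185 with quantile normalization, 80 without trend or robust variance, and 0 with no filter, where 1270 had an unadjusted limma p below 0.05. Of the 75 genes 38, 57, 60, 3, 74, 74 and 70 were shared in these settings, in the order given and leaving out the last.

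Whether the numbers pair the libraries is not said in the labels. The differences between the numbers had a correlation of 0.875 between the genotypes across 11147 genes, which are not independent. The block changed the call of Dlk1 and Nnat and of none of the other 8 genes.

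When 1 library was left out, the difference between the numbers entered the genotype-only change of each gene, by construction. It then ran from -3.15 to 0.98 for Dlk1, -3.31 to 2.37 for Mest, -1.58 to 2.02 for Peg3, -1.20 to -0.78 for Nnat, -0.62 to 0.52 for Peg10, -0.18 to 0.47 for Sgce, -1.59 to 0.82 for Plagl1, -0.82 to 0.37 for Grb10, -0.65 to 0.52 for Igf2r and -1.17 to 0.99 for Zim1. With all 4 libraries 0 of the genes reversed in any setting. The 2 libraries per genotype limit the precision of every value.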
